A study of Mus musculus with 24 samples.

Results

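The antigen presentation genes of MHC class I were followed through cultured organs of Corti (OC) of the mouse cochlea exposed to gentamicin, pioglitazone or both. The 10 members were B2m, H2-K1, H2-D1, Tap1, Tap2, Tapbp, Psmb8, Psmb9, Psmb10 and Nlrc5, taken by name and Entrez identifier from the 24454 genes of the count table. All 10 had enough reads to be tested, among 16317 genes in all. OCs came from C57BL/6N mice of both sexes at postnatal day 5 and spent 24 h in drug-free medium with serum and penicillin before treatment. They were then kept without drug (CTRL), with 50 µM gentamicin (GM), an aminoglycoside antibiotic that is toxic to hair cells, with 10 µM pioglitazone (PIO), which activates the nuclear receptor PPAR-gamma, or with both (PIO + GM), for 6 h or 24 h. Each of the 8 groups had 3 libraries of 6 pooled OCs each, made from total RNA with a stranded kit. Treatments were done in triplicate. The sources do not say whether replicates came from separate cultures or litters, so the p-values measure only the spread between these samples.

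Every nucleated cell can show peptides from its own proteins on MHC class I molecules, which CD8 T cells read. Immunoproteasome subunits cut the peptides, the TAP transporter carries them into the endoplasmic reticulum, tapasin loads them onto a heavy chain, and beta-2 microglobulin completes the complex. Interferons raise these genes together, and NLRC5 acts as their transcriptional co-activator. The cochlea holds resident macrophages, a cell type rich in these molecules.

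The libraries held 7211357 to 15548856 counts, with a median of 12538495. Among the 6 h libraries, PIO replicate 2 and PIO + GM replicates 2 and 3 were highest on the second principal component, at 29.9 to 51.4, followed by PIO replicate 1 at 18.1 and the others at -41.6 to -8.87. Values without those 3 libraries are given beside several results at 6 h and with time. That omission leaves PIO + GM at 6 h with replicate 1 alone, which is then assumed to vary like the libraries of other groups. That library was above its group mean for all 10 members, so such values for PIO + GM describe 1 library. Hair cell markers were present in every library, with 10 of 10 detected and a summed level of 148 to 456 CPM, the counts scaled for library size. The explants also held macrophages, with 13 of 13 markers detected and a sum of 66.3 to 263 CPM. The 8 markers of T and NK cells summed to 0.787 to 8.51 CPM, with Cd3e at 0 to 6 reads, and the 4 of B cells to 0.321 to 4.98 CPM. Markers of endothelial cells summed to 188 to 416 CPM, of fibroblasts and mesenchyme to 1782 to 4462 and of neurons to 28.4 to 278. In RNA from whole explants, fewer cells of a type and less RNA per cell cannot be told apart.

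Most members lie on mouse chromosome 17 in the H2 complex, the mouse MHC (all positions from RefSeq, GRCm38.p6). B2m, the light chain, lies outside it at chr2:122147687-122153082. The heavy chain genes H2-K1 and H2-D1 are at chr17:33996012-34000619 and chr17:35263094-35267497. Tapbp, which encodes tapasin, is at chr17:33919478-33929290. Psmb9 (chr17:34182030-34187330), Tap1 (chr17:34187556-34197225), Psmb8 (chr17:34198195-34201454) and Tap2 (chr17:34204479-34216321) follow each other. Psmb10 (chr8:105935728-105938392) and Nlrc5 (chr8:94434335-94527272) are on chromosome 8.

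The sequence before the start of B2m is shown because it carries letter patterns linked in textbooks to the control of this pathway. It covers chr2:122147537-122147685 on the plus strand (RefSeq, GRCm38.p6). The capitals mark, from left to right, the interferon response core (GAAA, 2 bases, GAAA), TGACG, and ATTGG, which is CCAAT on the other strand.

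B2m: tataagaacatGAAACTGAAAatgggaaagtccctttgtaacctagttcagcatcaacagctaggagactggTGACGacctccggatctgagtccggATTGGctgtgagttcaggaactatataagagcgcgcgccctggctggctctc

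Promoter windows of 250 bases before and 50 bases after the start were given for 8 of the 10 members (RefSeq, 32851 windows in all, both strands searched). The interferon response core was in the window of 1 of the 8, B2m, and in 3.44% of all windows. TGACG was in 5 of the 8 and in 20.8% of all, and CCAAT in 6 of the 8 and in 37.4% of all. The gamma-activated core (TTC, 3 bases, GAA) was in that of Psmb8 and in 8.3% of all. In B2m, H2-K1 and H2-D1 the TGACG and ATTGG patterns stood 20 bases apart, a spacing picked out after these windows were seen. The same spaced pair was in 31 windows, 0.0944% of all, and 1 other was that of H2-M3, a non-classical heavy chain. These 30-base stretches are shown to compare the light chain and heavy chain genes, at chr2:122147609-122147638, chr17:34000359-34000388 (minus strand), chr17:35262993-35263022 and chr17:37270188-37270217. A match is a description and not a site shown to be bound.

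B2m: TGACGacctccggatctgagtccggATTGG
H2-K1: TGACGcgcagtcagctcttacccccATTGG
H2-D1: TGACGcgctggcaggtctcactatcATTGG
H2-M3: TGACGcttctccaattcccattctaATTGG

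Levels can be compared between genes only per gene length, here as RPKM (CPM divided by the deposited gene length in kilobases), with the median over the 24 libraries. B2m was the highest member at a median of 132 RPKM, with a range of 82.8 to 189. H2-K1 followed at 45.4 (19.4 to 64.0), Tapbp at 37.3 (14.7 to 56.3) and H2-D1 at 21.1 (8.95 to 34.2). Neighbours in this order below B2m overlapped in their ranges. The middle of the order held the third immunoproteasome subunit Psmb10 at 6.91 RPKM and the TAP subunits Tap2 at 6.59 and Tap1 at 4.30. Psmb8 had a median of 2.91 RPKM, Psmb9 of 0.935 and Nlrc5, the co-activator, of 0.507. Psmb9 rested on 4 to 18 reads a library and Nlrc5 on 12 to 224. Nlrc5 spread the most between libraries, with its highest CPM 24.6 times its lowest, against 2.29 times for B2m.

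**Figure D1:**
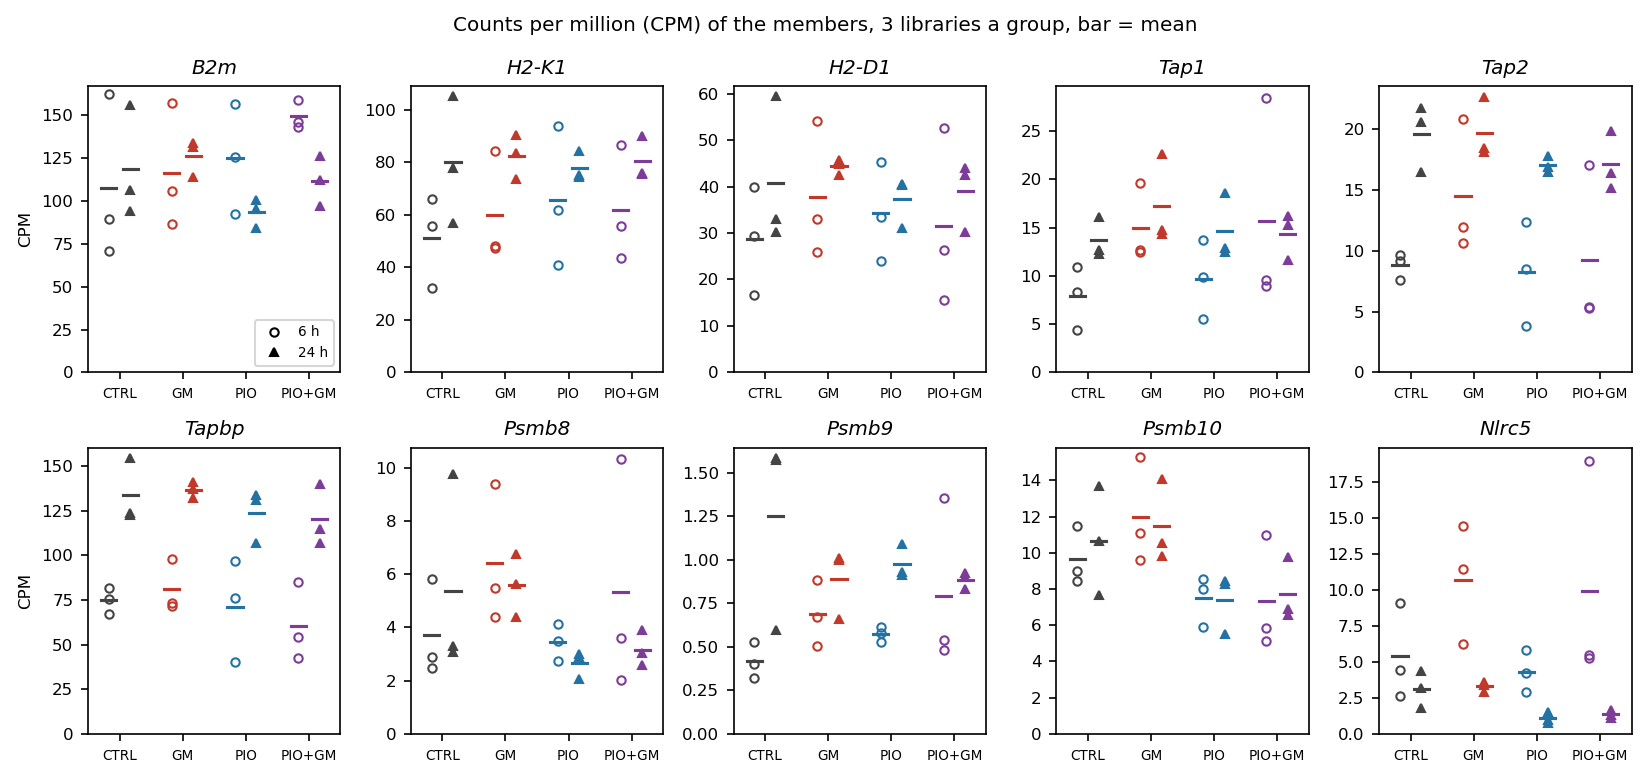
CPM of each member in every library (circles 6 h, triangles 24 h, bars the mean of 3 libraries), with each axis starting at 0. Tapbp at 24 h lies above 6 h in every treatment, and Nlrc5 at 24 h lies below 6 h in GM, PIO and PIO + GM.

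Members were called in both directions between 6 h and 24 h, and every called fall was in a drug-treated group. In those groups, time in culture and length of drug exposure rose together and cannot be told apart. Tapbp rose from 6 h to 24 h in all 4 treatments, Tap2 rose in CTRL and PIO, Psmb9 rose in CTRL, and Nlrc5 fell in GM, PIO and PIO + GM. The calls came from edgeR's quasi-likelihood test with Benjamini-Hochberg adjustment over all 16317 genes at a threshold of 0.05. In CTRL, 3 of 10 members rose and 0 fell, against 14.8% of all tested genes that rose and 13.2% that fell. In GM, 1 rose and 1 fell, against 12.5% and 11.7%. In PIO, 2 rose and 1 fell, against 13.2% and 15.8%, and in PIO + GM, 1 rose and 1 fell, against 17.6% and 17.0%. The counts in GM, PIO and PIO + GM were thus near the shares of all genes. The median log2 fold change of the members was 0.58 in CTRL, 0.22 in GM, 0.18 in PIO and 0.10 in PIO + GM, and that of all genes lay between 0.01 and 0.03. Leaving out 1 library at a time moved the median of the members between 0.27 and 0.83 in CTRL, 0.06 and 0.52 in GM, -0.04 and 0.50 in PIO and -0.11 and 0.68 in PIO + GM. Without the 3 libraries highest on the second principal component it was -0.04 in PIO, and in PIO + GM, with 1 library left at 6 h, it was -0.50 with 2 of 10 members higher, against 6 with all libraries. At 24 h every library lay above every 6 h library for 4 members in CTRL, 1 in GM, 3 in PIO and 1 in PIO + GM, against 24.1%, 22.7%, 20.5% and 22.4% of all genes. Every library lay below for 0, 1, 1 and 2 members, against 22.3%, 22.2%, 20.7% and 20.7%.

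Tapbp, the chaperone that holds empty heavy chains at the TAP transporter, had 81.8, 75.7 and 67.1 CPM in the CTRL libraries at 6 h and 124, 123 and 155 at 24 h. In GM it had 73.2, 71.6 and 98.03 CPM at 6 h and 132, 141 and 137 at 24 h. In PIO the values were 75.99, 40.5 and 97.0 at 6 h and 134, 131 and 107 at 24 h. The 6 h and 24 h libraries did not overlap in any of the 3 treatments, and the same held for PIO + GM, with 85.1, 54.1 and 42.4 CPM at 6 h and 140, 115 and 107 at 24 h. The log2 fold change was 0.84 ± 0.25 (SE; adjusted p = 0.0166, edgeR) in CTRL, 0.76 ± 0.25 (adjusted p = 0.0316) in GM, 0.80 ± 0.25 (adjusted p = 0.0216) in PIO and 0.99 ± 0.25 (adjusted p = 0.00514) in PIO + GM. The calls in CTRL, GM and PIO were lost when single libraries were left out. In CTRL the adjusted p rose to between 0.0544 and 0.0709 without replicates 2 or 3 at 6 h or replicate 3 at 24 h. In GM it rose to between 0.0617 and 0.130 without replicates 1 or 2 at 6 h or any replicate at 24 h. In PIO it was 0.0666 and 0.0636 without replicates 1 and 2 at 24 h. The lowest values were those of PIO replicate 2 and PIO + GM replicate 3 at 6 h, which were among the 3 libraries highest on the second principal component. Without those 3 libraries the log2 fold change in PIO + GM was 0.51 against the 1 library left at 6 h (adjusted p = 0.0918). In PIO it was 0.52 both ways, with an adjusted p of 0.115 when only replicate 2 at 6 h was left out and 0.0348 when all 3 libraries were.

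Nlrc5, which has no DNA-binding domain of its own and works with factors at MHC class I promoters, went the other way. In PIO + GM it had 19.0, 5.46 and 5.27 CPM at 6 h and 1.66, 1.14 and 1.31 at 24 h. In PIO it had 2.90, 4.24 and 5.86 CPM at 6 h and 0.771, 1.497 and 1.00 at 24 h. In GM it had 6.23, 11.5 and 14.4 CPM at 6 h and 3.64, 2.91 and 3.40 at 24 h. Every 24 h library was below every 6 h library in these 3 treatments. Nlrc5 fell by 2.85 ± 0.53 on the log2 scale in PIO + GM (adjusted p = 0.000588, edgeR), to 0.138 of its 6 h level. It fell by 1.99 ± 0.54 in PIO (adjusted p = 0.0109) and by 1.69 ± 0.49 in GM (adjusted p = 0.0174). In CTRL the libraries overlapped, with 4.42, 9.09 and 2.64 CPM at 6 h and 3.16, 1.78 and 4.37 at 24 h, and the log2 fold change of -0.80 ± 0.50 did not pass (adjusted p = 0.251). Without CTRL replicate 2 at 6 h that value was -0.20, and without CTRL replicate 3 at 6 h it was -1.13. The call in GM was lost without replicates 2 or 3 at 6 h or replicate 2 at 24 h (adjusted p 0.0547 to 0.0648), and that in PIO without replicate 1 at 24 h (adjusted p = 0.0516). The change in GM minus that in CTRL was -0.89 (95% interval -2.35 to 0.57), the change in PIO minus that in CTRL was -1.19 (-2.72 to 0.35), and the change in PIO + GM minus that in GM was -1.16 (-2.65 to 0.32). Without PIO + GM replicate 1 at 6 h the last was -0.26, and with it as the only library of its group at 6 h -2.08. The change in PIO + GM minus that in CTRL, a difference chosen after the values were seen, was -2.05 (-3.57 to -0.54). Its unadjusted p was 0.0104 and it did not pass over all genes (adjusted p = 0.736, edgeR). Without PIO + GM replicate 1 at 6 h it was -1.15. The call in PIO + GM held under all 13 alternatives, and without replicate 1 at 6 h, which had the highest value, the fall was 1.95. In 1 of the 13 alternatives that library was the only one left at 6 h, and the fall of 3.78 there describes it alone.

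Tap2, a subunit of the peptide transporter, had 9.17, 9.62 and 7.59 CPM in CTRL at 6 h and 20.6, 16.5 and 21.7 at 24 h, without overlap. It rose by a log2 fold change of 1.154 ± 0.38 in CTRL (adjusted p = 0.0294, edgeR) and 1.03 ± 0.38 in PIO (adjusted p = 0.0480). In PIO the values were 8.51, 3.81 and 12.4 CPM at 6 h and 16.5, 17.8 and 16.9 at 24 h. The call in CTRL held only without replicate 2 at 24 h among the 6 single omissions, with an adjusted p of 0.0647 to 0.0872 in the others. Among the 6 single omissions the call in PIO held only without replicate 3 at 6 h. It was lost without replicate 2 at 6 h, at 0.70 (adjusted p = 0.214), at 0.70 without the 3 libraries highest on the second principal component (adjusted p = 0.0542), and with no filter on low counts (adjusted p = 0.05495). Values of 0.44 ± 0.37 in GM and 0.88 ± 0.38 in PIO + GM did not pass (adjusted p = 0.411 and 0.0805). The value in PIO + GM turned on single libraries, since it was 1.69 without replicate 1 at 6 h (adjusted p = 0.00181, where 19.6% of all genes were called higher and 17.0% lower) and 0.01 with replicate 1 as the only library at 6 h.

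Psmb9, the subunit that takes the place of Psmb6 in the immunoproteasome, had 5, 6 and 4 reads in CTRL at 6 h and 18, 9 and 18 at 24 h. Its log2 fold change of 1.55 ± 0.42 in CTRL passed (adjusted p = 0.0106, edgeR), and rests on these low counts. In PIO its 24 h libraries were also all higher, at 0.75 ± 0.41, and did not pass (adjusted p = 0.169). Without CTRL replicate 3 at 24 h none of the 3 calls in CTRL was kept, with Psmb9 at an adjusted p of 0.0503. Without CTRL replicate 1 at 24 h Psmb9 also missed the threshold, at a log2 fold change of 1.33.

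The other members gave no call in any of the 4 treatments. Tap1, the partner of Tap2, had 8.36, 10.9 and 4.39 CPM in CTRL at 6 h and 12.7, 12.2 and 16.2 at 24 h. These did not overlap, and the log2 fold change of 0.79 ± 0.41 did not pass (adjusted p = 0.157). H2-K1 had a value of 0.64 ± 0.31 in CTRL (adjusted p = 0.133), with overlap between the libraries. B2m was lower at 24 h in every library of PIO + GM, with 159, 143 and 146 CPM at 6 h and 112, 126 and 97.1 at 24 h, and its value of -0.42 ± 0.26 did not pass (adjusted p = 0.220). H2-D1, Psmb8 and Psmb10 overlapped between 6 h and 24 h in each treatment.

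**Figure D2:**
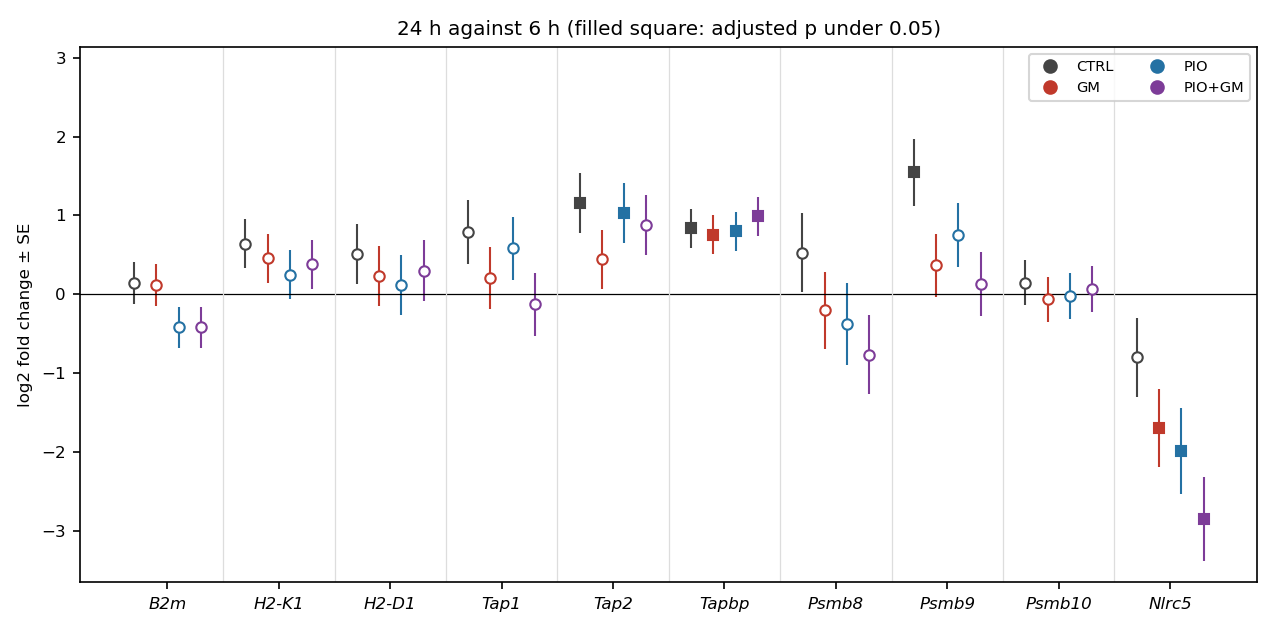
Log2 fold change from 6 h to 24 h for each member in the 4 treatments, with the SE as bars and filled squares for an adjusted p under 0.05. Tapbp is above 0 with a filled square in all 4 treatments, and Nlrc5 runs from -0.80 in CTRL to -2.85 in PIO + GM.

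Cell type markers moved over the same interval. Macrophage markers, which mark cells rich in MHC molecules, summed to 66.3 to 156 CPM at 6 h and 86.0 to 263 at 24 h. A positive log2 fold change was found for 12 of the 13 in CTRL, 13 in GM, 11 in PIO and 12 in PIO + GM. Of these 1, 1, 3 and 4 passed, against 14.8%, 12.5%, 13.2% and 17.6% of all genes that rose. Supporting cell markers summed to 922 to 1585 CPM at 6 h and 1592 to 1937 at 24 h, without overlap. In CTRL, GM, PIO and PIO + GM, 2, 1, 1 and 2 of the 8 passed as higher. Erythroid markers summed to 178 to 654 CPM at 6 h and 77.5 to 241 at 24 h, and Schwann cell markers to 359 to 2567 and 333 to 842. In the same order of treatments, 5, 5, 3 and 3 of 5 erythroid and 2, 3, 2 and 2 of 5 Schwann cell markers passed as lower. In PIO + GM 1 Schwann cell marker passed as higher. Of all genes, 13.2%, 11.7%, 15.8% and 17.0% fell. Neuron markers summed to 48.3 to 278 CPM at 6 h and 28.4 to 173 at 24 h, with 5 of 5 negative in CTRL and 4 of 5 in each other treatment, of which 1, 1, 0 and 1 passed in CTRL, GM, PIO and PIO + GM. Both tested B cell markers fell in PIO, and none passed in the other treatments. The part of these shifts in the time results was not tested.

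Other genes of the pathway also moved with time. Of 15 tested heavy chain and class I-like genes outside the members, 5 rose in CTRL, 5 in GM, 2 in PIO and 5 in PIO + GM, and 0 fell in any of them. Of all genes, 14.8%, 12.5%, 13.2% and 17.6% rose, so that 2 of 15 in PIO is near the share of all genes. H2-T23, which encodes the ligand of the NKG2A receptor, and Fcgrt, the neonatal Fc receptor that also pairs with B2m, rose in each treatment. The log2 fold change of Fcgrt was 1.41 to 1.77 and that of H2-T23 0.99 to 1.604. H2-Q10 rose in CTRL, GM and PIO + GM, by 1.59, 1.39 and 2.20, and shares sequence with H2-K1. H2-Q2 rose in the same 3 treatments, H2-T22 rose in CTRL, Cd1d1 rose in GM and H2-M3 rose in PIO + GM. Of 6 loading and trimming genes, 2 rose in CTRL, 1 in GM, 0 in PIO and 2 in PIO + GM, and 1 fell in PIO and 2 in PIO + GM. Of all genes, 15.8% fell in PIO and 17.0% in PIO + GM, so that 1 of 6 is near the share of all genes. Calr, a lectin chaperone of the loading complex, rose in CTRL, GM and PIO + GM by 0.56, 0.65 and 0.56. Tapbpl, a tapasin-related protein, rose in CTRL and PIO + GM, by 0.73 in both. Canx, the chaperone that binds new heavy chains, fell in PIO and PIO + GM, by 0.45 and 0.42 on the log2 scale, and Erap1, which trims peptides, fell in PIO + GM by 0.62.

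Of the 7 proteasome partners, 2 fell in CTRL, 1 in GM, 2 in PIO and 3 in PIO + GM, against 13.2%, 11.7%, 15.8% and 17.0% of all genes. In PIO + GM 1 of them rose, against 17.6% of all genes. The activator subunit Psme3, which does not belong to the interferon-induced set, fell in all 4 treatments by 0.43 to 0.75. The constitutive subunit Psmb6 fell in CTRL, Psmb7 fell in PIO and PIO + GM, and the assembly factor Pomp fell in PIO + GM. Psme1, an activator subunit that interferon induces, rose in PIO + GM by 0.62. Of the 12 regulators, 1 rose in CTRL, 0 in GM, 1 in PIO and 1 in PIO + GM, and 1 fell in PIO + GM, shares below those of all genes. Rfx5, part of the complex through which NLRC5 acts, rose in CTRL, PIO and PIO + GM by 0.73, 0.64 and 0.68.

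The drugs themselves gave no call among the members. In all 6 comparisons within a time point, 0 of 10 passed in edgeR, and DESeq2 also gave 0. Of all tested genes, 0% passed for GM against CTRL at 6 h and 0.0123% at 24 h. For PIO against CTRL the shares were 0.337% at 6 h and 0.153% at 24 h, and for PIO + GM against GM they were 1.32% and 0.110%. These shares depend on the model. With the replicate number as a block, 371 and 241 genes passed for PIO and 1990 and 98 for PIO + GM against GM. The block still called 0 members. The count of members with an unadjusted p under 0.05 was 1 for GM at 6 h and 0 at 24 h, 0 and 1 for PIO, and 1 and 1 for PIO + GM against GM. Of all genes, 1.49% and 1.67% had such a p for GM, 15.2% and 9.93% for PIO, and 25.0% and 7.47% for PIO + GM against GM. Every treated library lay above every control library (for PIO + GM, every GM library) for 2 members and below for 0 with GM at 6 h (3.14% and 2.09% of all genes), and for 0 and 0 at 24 h (2.60% and 3.06%). With PIO the counts were 1 and 0 at 6 h (8.68% and 6.73%) and 0 and 2 at 24 h (11.7% and 10.6%). With PIO + GM against GM they were 0 and 0 at 6 h (11.6% and 11.4%) and 0 and 3 at 24 h (9.84% and 8.57%). The comparisons of GM and PIO share the CTRL libraries, and those of GM and PIO + GM share the GM libraries.

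After 6 h of GM, all 10 members had a higher fitted level than CTRL, and the median of their log2 fold changes was 0.56 (all genes 0.00, with 49.7% of them higher). None passed. Tap1 had 8.36, 10.9 and 4.39 CPM in CTRL and 12.7, 12.5 and 19.7 in GM. The groups did not overlap, and its log2 fold change of 0.92 ± 0.41 had an unadjusted p of 0.0342 and an adjusted p of 1.00 (edgeR). Tap2 had 9.17, 9.62 and 7.59 CPM in CTRL and 11.9, 10.6 and 20.8 in GM, also without overlap, at 0.72 ± 0.38. Nlrc5 had 4.42, 9.09 and 2.64 CPM in CTRL and 6.23, 11.5 and 14.4 in GM. Its value of 1.00 ± 0.48 came with overlapping groups. Psmb8, the subunit that replaces Psmb5, stood at 0.79 ± 0.50 and Psmb9 at 0.73 ± 0.44, both with overlap. GM replicate 3 held the highest value of the group for all 10 members and CTRL replicate 3 the lowest of its group. Leaving out 1 library at a time moved the median between 0.24 and 0.75 and the count of members higher between 7 and 10. In the same comparison 11 of 13 macrophage markers (median 0.16) and 5 of 5 Schwann cell markers (median 0.42) had a positive value and 5 of 5 erythroid markers a negative one (median -0.63), with 0 passed. Their part in the result was not tested.

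Among the other heavy chain genes at 6 h, H2-T22 had the lowest p for GM against CTRL, with a log2 fold change of 0.62 ± 0.21 (adjusted p = 1.00, edgeR). After 24 h of GM the members lay between -0.45 and 0.33, with a median of 0.07 and 9 of 10 higher. Leaving out 1 library moved the median between -0.08 and 0.33, and the count higher was 2 without CTRL replicate 2 and 5 without CTRL replicate 1. The effect of GM at 24 h minus that at 6 h was below 0 for all 10 members, with a median of -0.44. The effect of PIO at 24 h minus that at 6 h was also below 0 for all 10, with a median of -0.39, and both differences use the same CTRL libraries. The effect of PIO + GM against GM, which does not use them, gave 4 members above 0 and 6 below, with a median of -0.16. None of these differences passed in edgeR or DESeq2, 0 had an unadjusted p under 0.05, and 0% of all genes passed.

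Against CTRL, PIO lowered no member by the test. The values at 6 h lay between -0.36 and 0.46, with 5 members higher and 5 lower and a median of 0.07. Leaving out 1 library moved the median between -0.15 without PIO replicate 3 and 0.39 without CTRL replicate 2, and the members higher between 3 and 7. Without the 3 libraries highest on the second principal component, which leaves out PIO replicate 2, 7 were higher and the median was 0.23. At 24 h, 9 of 10 were lower, with a median of -0.26, and 48.6% of all genes were higher. Leaving out 1 library moved the median between -0.40 without CTRL replicate 2 and -0.11 without CTRL replicate 3, and the members higher between 0 without PIO replicate 2 and 4 without CTRL replicate 3. Nlrc5 had 3.16, 1.78 and 4.37 CPM in CTRL and 0.771, 1.497 and 1.00 in PIO, without overlap. Its log2 fold change was -1.49 ± 0.55 (unadjusted p = 0.0134, adjusted p = 0.340, edgeR). Psmb8 had 3.08, 3.30 and 9.78 CPM in CTRL and 2.89, 2.99 and 2.07 in PIO, again without overlap, at -1.01 ± 0.51 (adjusted p = 0.527). This value rested on CTRL replicate 3, since without that library it was -0.26. Psmb10, the subunit that replaces Psmb7, overlapped at -0.53 ± 0.29 (adjusted p = 0.569).

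All 10 members were lower, with a median of -0.19 (9 of 10 lower whichever 1 of the 6 libraries was left out), and the same 3 genes were lowest when PIO was added to GM for 24 h. That comparison used separate libraries, though most pairs of libraries with the same replicate number correlated at 24 h. Nlrc5 had 3.64, 2.91 and 3.40 CPM in GM and 1.66, 1.14 and 1.31 in PIO + GM, which did not overlap. The log2 fold change was -1.27 ± 0.54 (unadjusted p = 0.0286, adjusted p = 0.574, edgeR). Psmb8 had 5.62, 4.39 and 6.74 CPM in GM and 3.91, 2.58 and 3.03 in PIO + GM, at -0.81 ± 0.50 (adjusted p = 0.779). Psmb10 had 9.84, 10.5 and 14.1 CPM in GM and 9.80, 6.89 and 6.54 in PIO + GM, at -0.57 ± 0.29 (adjusted p = 0.699). All 3 had every PIO + GM library below every GM library, as did 8.57% of all genes, and none passed. The effect of PIO with GM minus that without GM was 0.22 for Nlrc5 (95% interval -1.37 to 1.81), an interval too wide to show whether the effects differ. Outside the members, H2-T24 (-1.82 ± 0.55 for PIO, -1.63 ± 0.53 for PIO + GM against GM) and Tapbpl (-0.74 ± 0.24 and -0.62 ± 0.24) had the lowest p values at 24 h, with adjusted p between 0.211 and 0.523. The macrophage sums were 133 to 178 CPM in CTRL, 129 to 263 in GM, 91.6 to 247 in PIO and 86.0 to 239 in PIO + GM. For PIO + GM against GM, 12 of 13 macrophage markers had a negative value (median -0.24), and for PIO against CTRL 6 of 13 did (median 0.00). Endothelial markers, 6 of 6, had a negative value in both comparisons at 24 h. Hair cell markers were negative for 8 of 10 with PIO and 7 of 10 with PIO + GM against GM. Erythroid markers, 5 of 5, had a positive value in both. Of these lists 0 passed. Their part in these results was not tested.

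At 6 h, PIO + GM against GM depended on 1 library. With all libraries, Psmb10 stood at -0.70 ± 0.29 (adjusted p = 0.149, edgeR), Tap2 at -0.63 ± 0.38 and Tapbp at -0.42 ± 0.25. Psmb10 had 11.1, 9.60 and 15.3 CPM in GM and 11.0, 5.86 and 5.13 in PIO + GM. Tap2 had 17.0, 5.30 and 5.40 CPM in PIO + GM, so that replicate 1 stood above the others of its group and within the range of GM. Without PIO + GM replicate 1 the 3 genes passed, at -1.13 (adjusted p = 0.0144), -1.45 (adjusted p = 0.0107) and -0.75 (adjusted p = 0.0388). Of all genes, 11.4% were then called higher and 13.0% lower. The 2 libraries that remained in PIO + GM were among the 3 highest on the second principal component. With PIO + GM replicate 1 as the only library of its group, against GM, the log2 fold change was -0.13 for Psmb10, 0.23 for Tap2 and 0.07 for Tapbp. The median of the members was -0.18 with 4 of 10 higher in all libraries, -0.80 with 1 of 10 higher without PIO + GM replicate 1, and 0.50 with 9 of 10 higher with that library alone. In the same comparison with all libraries, 10 of 13 macrophage markers (median -0.33), 5 of 5 Schwann cell markers (median -0.41) and 7 of 10 hair cell markers (median -0.52) had a negative value, with 0 passed in these lists. Their part in the result was not tested.

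**Figure D3:**
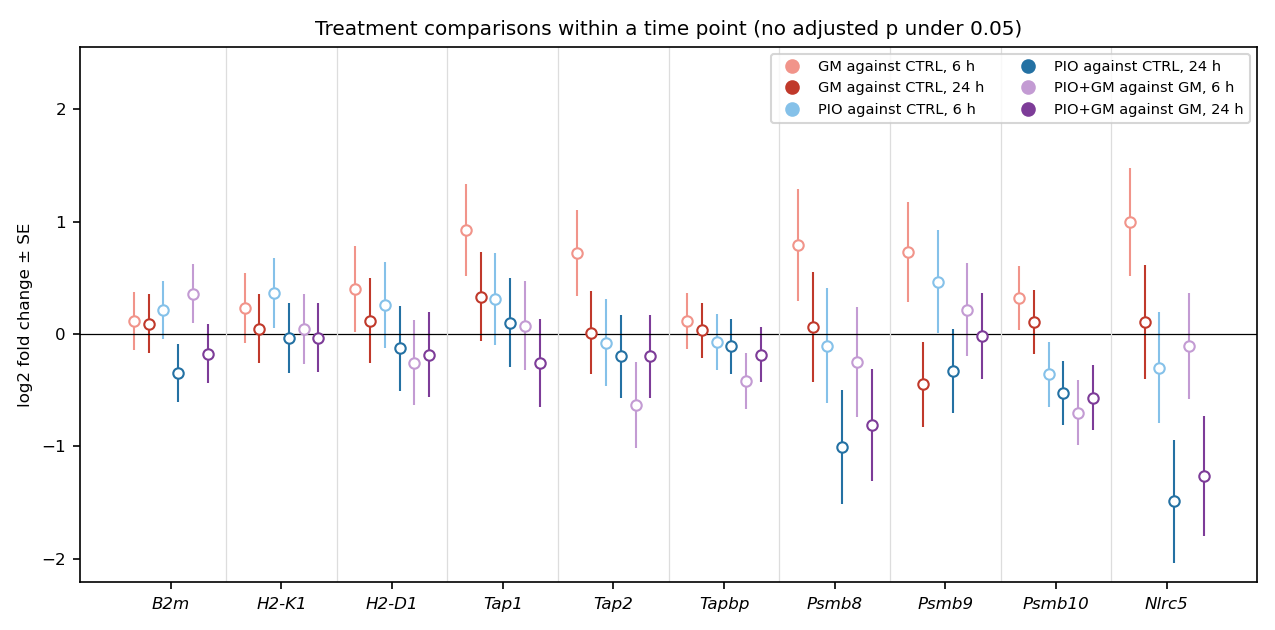
Log2 fold change of each member in the 6 treatment comparisons within a time point, with the SE as bars. All 10 members are above 0 for GM at 6 h, Nlrc5, Psmb8 and Psmb10 are lowest for PIO and PIO + GM at 24 h, and no point passed the threshold.

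None of the 5 planned differences between effects gave a call, in 10 members or in all 16317 genes (edgeR, 0% for each). No member had an unadjusted p under 0.05 in any of them, and DESeq2 gave 0 members. The difference added later, the change with time in PIO + GM minus that in CTRL, also gave 0 calls in members and in all genes in edgeR (0%). There 2 members, Nlrc5 and Psmb9, had an unadjusted p under 0.05, against 5.99% of all genes, and 1 of 10 was above 0.

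Within a group, the members tended to go up and down together from library to library. In 5 of the 24 libraries all 10 members were above the mean of their own group, and in 5 others all 10 were below it. In the rest the members were split. PIO + GM replicate 1 at 6 h stood highest, on average 0.81 above its group mean on the log2 CPM scale, and PIO + GM replicate 3 at 6 h lowest at -0.52. GM replicate 3 at 6 h (0.47), CTRL replicate 3 at 24 h (0.45) and CTRL replicate 2 at 6 h (0.43) were the next highest. Across the 45 pairs of members, Pearson's r of these deviations was above 0 in all 45, with a median of 0.70 and a range of 0.13 (B2m with Tapbp) to 0.90 (Tap2 with Tapbp). Over the levels themselves r ranged from -0.43 to 0.93, and the lowest pair was Nlrc5 with Tapbp. From 6 h to 24 h these genes were called in opposite directions in GM, PIO and PIO + GM. These values describe 24 libraries in groups of 3, where deviations from a group mean are not independent. They were not set against the same values for other sets of genes.

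The genes most like the mean of the members across the 24 libraries were Parp10 (r = 0.92), Lgals3bp (0.90), Bst2 (0.87), Tmem140 (0.87) and Ly6e (0.83). Over deviations from the group means they were Ifitm3 (r = 0.96), Bst2 (0.94), Parp10 (0.92), Ly6e (0.91) and Sfrp4 (0.91). Bst2, which encodes tetherin, Ifitm3 and Parp10 are known interferon-stimulated genes. All the genes named here were picked by r in these same libraries, and a part of interferon in these differences was not tested. The macrophage sum in the same libraries was 105 CPM in PIO + GM replicate 1 at 6 h, against 94.95 and 77.2 in the others of its group, 154 in GM replicate 3 at 6 h against 69.8 and 86.2, 155.7 in CTRL replicate 2 at 6 h against 72.2 and 76.8, and 129.5 in PIO replicate 3 at 6 h against 66.3 and 100.7. In CTRL at 24 h, replicate 3 had the lowest macrophage sum of its group, 133 against 137 and 178, and the highest members. In GM, PIO and PIO + GM at 24 h, replicate 2 had the highest sum. It was 263 CPM in GM against 129 and 135, with 8 members below the group mean and 2 above. In PIO + GM it was 239 against 135 and 86.0, with 6 members below and 4 above. In PIO it was 247 against 136 and 91.6, with 1 member below and 9 above. The part of macrophages in these differences was not tested.

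**Figure D4:**
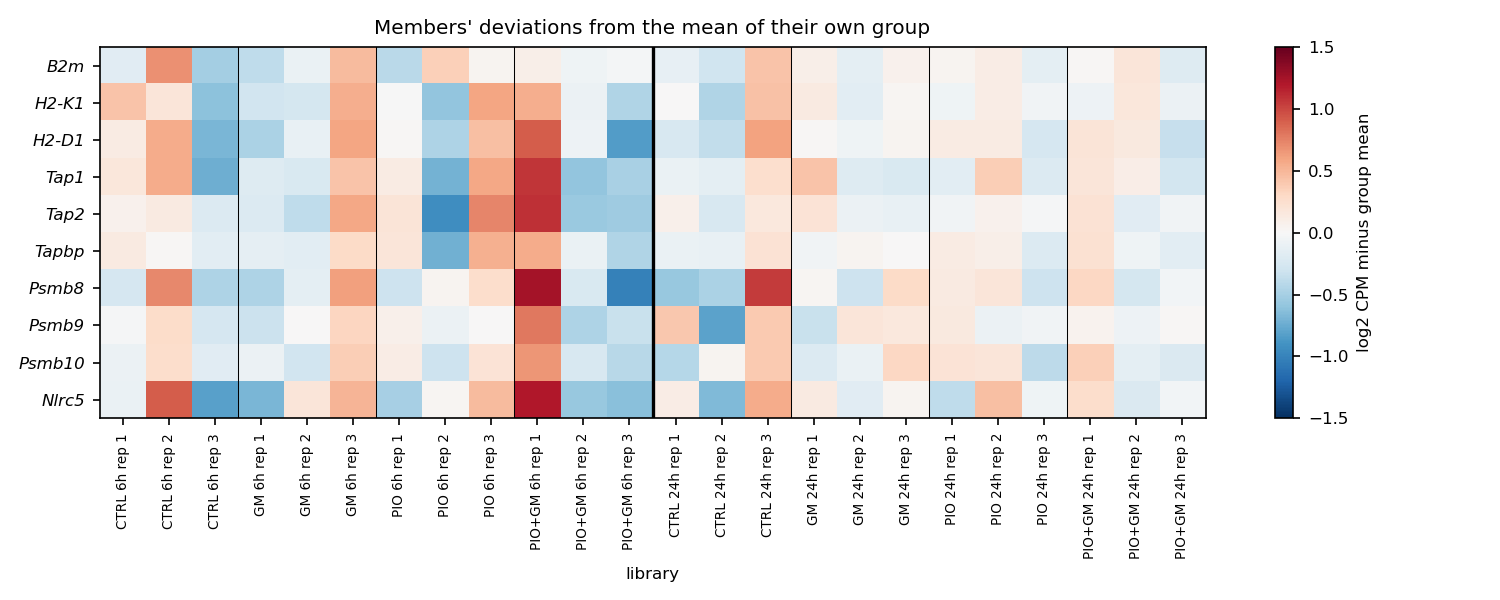
Log2 CPM of each member minus the mean of its own group in the 24 libraries (red above, blue below; thin lines divide groups and the thick line divides 6 h from 24 h). Some whole columns share a colour, as in PIO + GM replicate 1 at 6 h, and the 6 h libraries have the stronger colours.

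Reads were single and 76 bases long, so related genes can share them. Of the distinct 76-base windows in annotated H2-K1 transcripts, 2.96% were also in transcripts of other genes, mostly H2-Q10 and H2-Q7. For H2-D1 the share was 5.4%, mostly H2-Q1. B2m and Psmb10 shared none between annotated transcripts. Each lies wholly within the span of a gene on the opposite strand, Patl2 for B2m (5398 bp) and Gm16156 for Psmb10 (2710 bp). Transcripts of Tapbp overlapped an antisense gene in 17.4% of windows, those of Psmb8 in 9.9%, those of Tap2 in 6.45% for 1 antisense gene and 1.69% for another, and Tap1 and Psmb9 overlapped each other head to head. Whether the counting used strand is not given in the sources used here, so reads from these partners may be included.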

How the data were processed

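The deposited values were raw read counts per Entrez gene for 24 libraries. The authors mapped single reads to mm10 with STAR and counted reads starting within RefSeq exons with QuasR. Handling of strand and of multiply mapped reads is not given in the sources used here. The deposited gene length was used for RPKM. Libraries held 7211357 to 15548856 counts, and genes at few counts have wide errors.

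Groups followed the labels. Counts were fitted in edgeR 4.0.16 (R 4.3.3) with TMM factors (0.961 to 1.038), its filter on low counts and 1 mean per group over 24 libraries. The quasi-likelihood test was used for 6 treatment, 4 culture time and 5 interaction contrasts, and 1 interaction added after seeing the data, two-sided, with Benjamini-Hochberg adjustment over 16317 genes and a threshold of 0.05. Log2 CPM used a prior count of 2. The procedure was tested on simulated data. Alternatives were no TMM factors, no filter, at least 10 counts in every library, a replicate block, only the libraries compared, DESeq2 1.42.0 and leaving out each library. Leaving out 3 libraries together was added after seeing the data. Motifs and shared windows were counted with Python 3.11.15.

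The members, pathway lists and cell type markers were chosen with earlier results of these data known. All 10 members are named. Pathway genes are named where they passed, with at most 2 others a contrast by lowest p, and the 5 genes most like the members by Pearson's r on each scale. 1 regulator of the pathway lists that passed is not reported here.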

Additional observations from a re-analysis of the deposited data

How the results depend on the processing

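Of 36 log2 fold changes of members given above, 33 kept their direction under all alternatives run. The exceptions were Tap2 (0.226) and Tapbp (0.0675) for PIO + GM against GM at 6 h without the 3 libraries highest on the second principal component, which leaves 1 library of PIO + GM at 6 h, and the effect of PIO on Nlrc5 with minus without GM at 24 h, which ran from -0.106 (without CTRL replicate 3) to 0.523 over single omissions. Of 10 calls, only that of Nlrc5 with time in PIO + GM held under all its alternatives, and most losses came from leaving out 1 library. The members called with time ranged from 0 to 3 in CTRL, 0 to 1 in GM, 0 to 3 in PIO and 2 to 3 in PIO + GM over such omissions, and for PIO + GM against GM at 6 h from 0 to 3. With only the libraries compared, 1 member was called with time in PIO. For all genes, counts of calls ranged from 0 to 15 for GM at 24 h (2 as reported), 0 to 383 (55) and 2 to 241 (25) for PIO at 6 h and 24 h, and 0 to 4053 (216) and 1 to 112 (18) for PIO + GM against GM. With time they ranged from 2665 to 5012 (4564) in CTRL, 2164 to 4599 (3954) in GM, 1540 to 6055 (4731) in PIO and 3453 to 6179 (5646) in PIO + GM.

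The replicate numbers were not taken to pair the libraries, since no label ties a number to a culture or day and not every pair correlated above 0.1. Deviations from the group means of libraries with the same number correlated above 0.1 in 9 of 18 pairs at 6 h and 15 of 18 at 24 h. At 6 h 8 of 12 libraries correlated best with their own number, and at 24 h 11 of 12. Libraries with the same number thus shared structure at 24 h (mean r 0.380 against -0.182 for other pairs). With the replicate number as a block, 0 members were called in each of the 6 treatment comparisons, and the counts for all genes were 0 and 12 for GM at 6 h and 24 h, 371 and 241 for PIO, and 1990 and 98 for PIO + GM against GM. The block changed no count of members called with time. Depth limited Psmb9 (4 to 18 reads) and Nlrc5 (12 to 224 reads) most, and with a prior count of 0.5 the mean log2 CPM of Psmb9 moved by more than the spread between replicates in 4 of 8 groups.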
